A study of Mus musculus with 16 samples.

Results

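The H3K27ac response to IFNγ under PARP inhibition was examined by setting the peak list of macrophages given IFNγ together with PJ34 against the list of macrophages given PJ34 alone. H3K27ac is an acetylated histone mark of active promoters and enhancers. All 42960 peaks of the IFNγ+PJ34 list and all 44090 peaks of the PJ34 list were taken, 87050 of the 171291 peaks that the 4 conditions of the series hold. A peak was called IFNγ+PJ34-only or PJ34-only when the other list had no peak sharing even 1 bp with it, and the remaining peaks were paired across the lists by their largest overlap.

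The cells were bone marrow-derived macrophages (BMDMs), primary macrophages grown in culture from the marrow of C57Bl6 mice aged 8 to 12 weeks. The PJ34 group received 20 µM PJ34, and the IFNγ+PJ34 group received 20 µM PJ34 for 1 h before 100 ng/mL IFNγ for 1 h. Both groups therefore carried the inhibitor. The labels time the inhibitor only by the IFNγ treatment, so whether its total exposure was the same in both groups is not given in the sources used here. The Control group (neither agent) and the IFNγ group (100 ng/mL for 1 h without PJ34) are given beside them where they place a region. Each condition had 2 ChIP replicates and 2 input samples, which the authors combined into a single peak list, so there is no replicate error for any value and no p-value is given. Intervals cover counting error only and treat neighbouring peaks as independent. In a bulk population, a change in the share of cells that carry the mark and a change in the mark per cell cannot be told apart.

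IFNγ acts through a cell surface receptor and the JAK1 and JAK2 kinases, and the signal reaches genes through the gamma-activated site (GAS), a short palindromic element. The genes turned on include the transcription factor IRF1, which with its relatives binds interferon-stimulated response elements (ISREs). In macrophages this program arms antigen presentation, chemokine secretion and defence against intracellular pathogens. PARP enzymes attach ADP-ribose to proteins, and PJ34 inhibits PARP-1 and several of its relatives.

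The sequences below show what lay beside the acetylated regions that appeared with IFNγ in the presence of PJ34. Within 50 kb of the start sites of 90 IFNγ-response genes, 50 regions that were IFNγ+PJ34-only or stood at least 20 percentile points higher in the IFNγ+PJ34 list held a GAS match (TTCNNNGAA, which reads the same on both strands) centred 150 to 350 bp from the summit. Of these regions 35 were IFNγ+PJ34-only and 15 were higher, and 17 held the stricter palindrome TTCCNGGAA. They were 19.8% (strict, 6.72%) of the 253 such regions searched near these genes, 1 chromosome being left out, while 23.5% (strict, 4.45%) of all IFNγ+PJ34-only peaks in the genome held a match, so GAS letters in general were not more frequent near these genes. A counted match can lie beyond the called edges of its peak, and one near a pair of adjoining peaks is counted for both. Some windows with the strict palindrome also resemble each other, those of Gbp4, Gbp6, Gbp8 and Gbp10 being nearly alike. The windows of Tgtp1 and Tgtp2 share runs of letters, as do those of Ifi203 and Ifi204, so the strict matches are not independent of one another. 6 windows of IFNγ+PJ34-only peaks that held the strict palindrome are printed, each with 40 bases on either side and the match in capitals (mm10, 5′ to 3′).
Ifi204 (chr1:173753535-173753623, plus strand): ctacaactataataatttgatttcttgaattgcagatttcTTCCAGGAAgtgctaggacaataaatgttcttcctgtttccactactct
Gbp4 (chr5:105145885-105145973, plus strand): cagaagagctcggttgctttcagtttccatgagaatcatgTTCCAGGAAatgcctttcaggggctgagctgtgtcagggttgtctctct
Socs1 (chr16:10814844-10814932, plus strand): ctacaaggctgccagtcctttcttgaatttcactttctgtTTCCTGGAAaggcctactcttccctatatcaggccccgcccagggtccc
Tgtp1 (chr11:48994218-48994306, plus strand): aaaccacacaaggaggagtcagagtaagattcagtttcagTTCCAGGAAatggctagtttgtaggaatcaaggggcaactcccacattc
Nlrc5 (chr8:94485454-94485542, plus strand): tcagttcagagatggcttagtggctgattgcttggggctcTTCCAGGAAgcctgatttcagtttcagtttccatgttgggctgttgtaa
Gbp10 (chr5:105263451-105263539, plus strand): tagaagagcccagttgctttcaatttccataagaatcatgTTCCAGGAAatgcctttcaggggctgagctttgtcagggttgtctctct

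Each of these peaks had no overlapping peak in the PJ34 list or in the Control list. The region beside Ifi204, a cytosolic DNA sensor of the p200 family, spans chr1:173752337-173754816 in an intron of that gene and stood at the 88.1 percentile of its list by score. That of Gbp4, a guanylate-binding protein that attacks pathogen-containing vacuoles, spans chr5:105144407-105147391 between genes, 6.02 kb from the Gbp4 start site, and stood at percentile 85.7, against 78.2 in the IFNγ list. The region of Socs1, the feedback inhibitor of JAK kinases, lies at chr16:10813289-10816023, 29.1 kb from the start site, and stood at percentile 70.5, against 56.3 in the IFNγ list. The peak beside Tgtp1, an immunity-related GTPase, stood at 67.8, against 58.4 in the IFNγ list. The Nlrc5 window lies between a pair of IFNγ+PJ34-only peaks at percentiles 51.6 and 48.7 in an intron of this activator of MHC class I genes. The Gbp10 window, in an intron of Gm43302, belongs to a peak at percentile 48.7 that was in no other list. The IFNγ list held peaks at 4 of the 6 loci (Gbp4, Socs1, Tgtp1 and Nlrc5) and none at those of Ifi204 and Gbp10.

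Some PJ34-only peaks near cytokine and NF-κB genes held other elements at the same distance from their summits. 3 windows are printed, with the AP-1 element (TGANTCA) of Nfkb1 and Il10 and the NF-κB element (GGGANTTCC) of Il1a in capitals. A further TGANTCA match in the Il10 window is left in lower case. Fos and Jun proteins bind the AP-1 element and NF-κB dimers the NF-κB element. Of all PJ34-only peaks in the genome 23.9% held the AP-1 element at this distance and 2.89% the NF-κB element. The share near these genes is not given, so the windows are examples and show no excess over the genome.
Nfkb1 (chr3:135670630-135670716, plus strand): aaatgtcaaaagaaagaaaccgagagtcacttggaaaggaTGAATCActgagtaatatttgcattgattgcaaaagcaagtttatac
Il10 (chr1:131038239-131038325, plus strand): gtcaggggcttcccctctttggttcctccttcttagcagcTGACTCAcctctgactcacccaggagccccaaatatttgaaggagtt
Il1a (chr2:129330730-129330818, plus strand): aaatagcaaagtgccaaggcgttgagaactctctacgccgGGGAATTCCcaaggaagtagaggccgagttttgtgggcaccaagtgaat

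The Nfkb1 peak, in an intron of the gene for the p50 subunit of NF-κB, spans chr3:135668679-135672444 and stood at percentile 82.9 in PJ34, 60.6 in Control and 75.4 in IFNγ. The peak of Il10, an anti-inflammatory cytokine, spans chr1:131038364-131039453, 18.7 kb from the start site, and stood at 79.6 in PJ34, 61.3 in Control and 24.3 in IFNγ. The peak of Il1a, the gene of interleukin 1 alpha, spans chr2:129330903-129332095 and stood at 68.0 in PJ34, 50.7 in Control and 48.7 in IFNγ. The printed matches of Il10 and Il1a lie just outside the called edges of these peaks. All 3 regions were peaks in every list but that of IFNγ+PJ34.

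Across the genome, both lists held many peaks that the other lacked. The number of IFNγ+PJ34-only peaks was 11045, or 25.7% of the list (exact 95% interval 25.3 to 26.1), and the number of PJ34-only peaks was 13921, or 31.6% (31.1 to 32). These unmatched peaks came mostly from the weak end of each list and away from promoters. Of the IFNγ+PJ34-only peaks, 78.3% lay in the lower 50% of the list by score, with a median width of 420 bp against 789 bp for the shared peaks, and 4.54% had their summit within 1 kb of a start site, against 37.5% of the shared peaks. Of the PJ34-only peaks, 85.1% lay in the lower 50%, with a median width of 381 bp against 917 bp, and 7.41% were at promoters, against 36.9%. Introns held 50.5% and 49.4% of the peaks found in 1 list only, and intergenic sequence 41.7% and 40.1%.

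The strong end of the lists was less even. The IFNγ+PJ34-only peaks included 298 of the top 25% of their list and 26 of the top 10%, whereas the PJ34-only peaks included 128 of the top 25% and 0 of the top 10%, where 0 of 4402 peaks allows a share of up to 0.0838% by the exact interval. In the lowest score decile the absent share was 67.6% for PJ34 and 39.5% for IFNγ+PJ34, and in the ninth decile 0.683% and 3.18%. The curves of the absent share by decile cross near the middle of the lists. The PJ34-only peaks were thus the larger set in number, and the IFNγ+PJ34-only peaks the larger set among the highest scores.

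**Figure D1:**
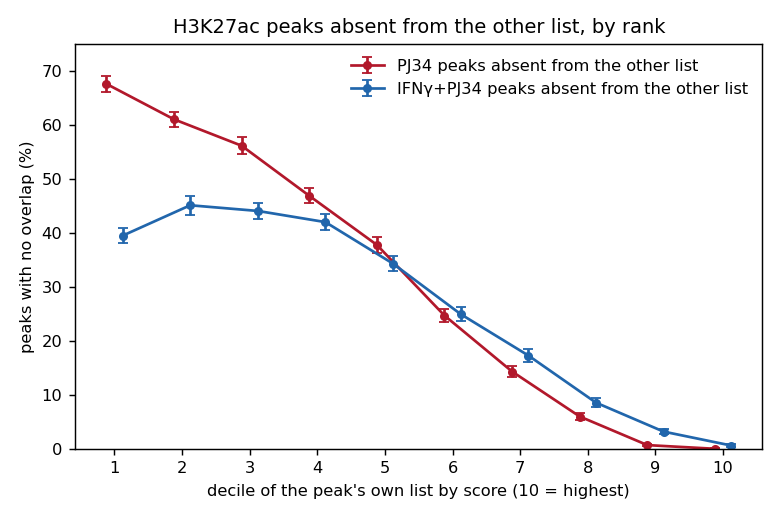
Share of peaks absent from the other list (%, vertical axis) against the score decile of the peak in its own list (horizontal axis, 10 = highest), for the PJ34 list (red) and the IFNγ+PJ34 list (blue), with exact 95% intervals. The PJ34 share declines from 67.6% to 0%, and the IFNγ+PJ34 share is lower in decile 1 (39.5%) and higher in decile 9 (3.18% against 0.683%).

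The 2 lists also differed in how they were made up, and this bears on every count above. The score is a linear rescaling of −log10 p, so a deeper library gives a smaller p at the same enrichment. Read depth is not in the files. At a fold enrichment of 5 to 6 the median −log10 p was 17.1 in PJ34 and 11.8 in IFNγ+PJ34, against 16.5 in Control and 14.4 in IFNγ. The absent share also moved with base composition: among peaks under 40% G+C in the summit window it was 40.3% for IFNγ+PJ34 and 42.5% for PJ34, and at 55% or above 6.70% and 12.7%. The part of these differences in the results was not tested, and ranks within each list were used in place of scores or fold enrichments.

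The macrophage label was checked against marker genes. All 15 macrophage lineage genes, among them Spi1, Csf1r, Adgre1 and Mertk, had a promoter peak in both lists, while 0 of 8 T and NK cell markers and 0 of 6 fibroblast markers had one in either. Of 8 neutrophil markers 2 (S100a8 and Camp) had a promoter peak in PJ34, at percentiles 25.3 and 32.8, and 0 in IFNγ+PJ34. Of 6 B cell markers Ms4a1 had one in both lists (38.2 and 15.6), of 6 dendritic cell markers Zbtb46 (46.0 and 15.6) and Xcr1 (72.4 and 79.9) did, and of 6 erythroid markers Klf1 had one in both (74.5 and 53.0).

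At the 26844 paired peaks, a percentile places a peak among all peaks of its own list, from 0 for the weakest to 100. The median shift, IFNγ+PJ34 minus PJ34, was -2.98 points (interval -3.17 to -2.72). A peak was called higher or lower at a shift of 20 points, and 3516 pairs (13.1%) were higher and 4795 (17.9%) lower. With percentiles taken among the paired peaks alone, 15.9% were higher and 15.01% lower. Percentiles of the pairs had a Spearman correlation of 0.717 across peaks, which are not independent of one another. Peak widths were close, with a median of 928 bp in IFNγ+PJ34 and 1019 bp in PJ34 and a median log2 ratio of -0.15, and summits moved by a median of 49 bp. Percentiles are coarse at the low end, where many peaks tie, and compressed at the high end, where a promoter near 100 can hardly move up.

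**Figure D2:**
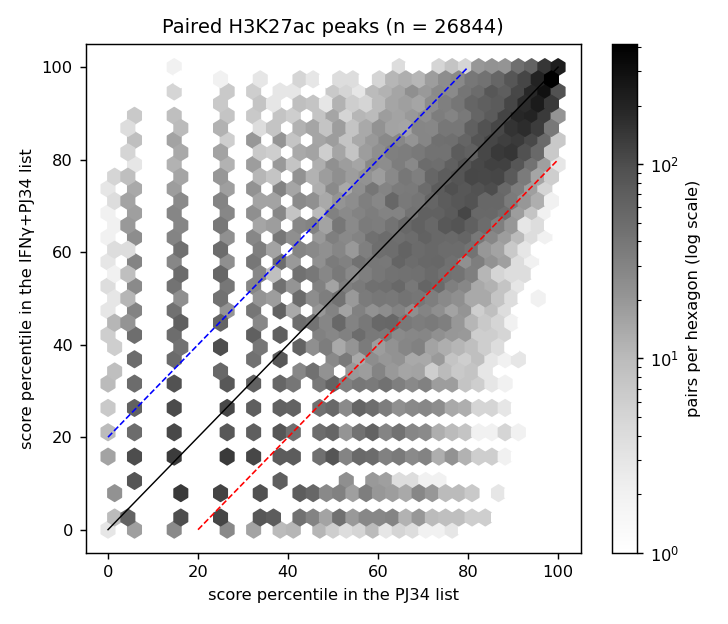
Score percentile of each of the 26844 paired peaks in the PJ34 list (horizontal axis) and in the IFNγ+PJ34 list (vertical axis), shaded by the number of pairs per hexagon on a log scale, with dashed lines at 20 points above (blue) and below (red) equality. Most pairs lie between the lines, 3516 above and 4795 below, and the stripes at low percentiles are tied scores.

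Promoters and distal regions moved unequally. The median shift was -4.71 points over 10651 promoter pairs, of which 2.70% were higher and 12.1% lower. Over 8297 intronic pairs it was 0.26 points, with 20.7% higher and 21.6% lower, and over 7326 intergenic pairs it was -0.34, with 19% higher and 21.7% lower. The shift also moved with base composition. Among distal pairs under 40% G+C the median was 1.73 points, with 24.6% higher and 20.9% lower. Among distal pairs at 55% or above it was -3.70, with 11.1% higher and 22.2% lower. Whether region type or base composition goes with the shift was not tested. Shift and log2 width ratio had a Spearman correlation of 0.695 across pairs, which are not independent, and both are read from the same signal.

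The IFNγ-response genes were read from 6 groups: the guanylate-binding proteins and immunity-related GTPases, the CXCR3 ligands and CC chemokines, the antiviral interferon-stimulated genes, antigen presentation, the receptor and JAK-STAT components, and the interferon regulatory factors. Of 93 genes 90 were found in the annotation. The promoter value of a gene is the highest percentile among peaks that overlap the 1 kb on either side of its start sites, so the values of a gene in different lists can come from different peaks, and a promoter without a peak can have one just outside this window. The promoter pair is the one with the highest mean percentile in the window. A promoter peak was present for 87 in the IFNγ+PJ34 list and for 82 in the PJ34 list. The promoter pair was higher by 20 points at 9 of 81 and lower at 3 of 81, beside 2.07% and 9.21% of the 10638 promoters of all protein-coding genes. With the highest promoter peak of each list compared in place of the pair, 6 were higher and 3 lower. Of the 81, 67 had a positive shift, with a median of 5.83 points against -4.25 over all genes. An IFNγ+PJ34-only peak lay within 50 kb of 73 of the 90 (81.1%), against 34.6% of all genes, and a PJ34-only peak within 50 kb of 54 (60%), against 39.1% of all genes, so the response genes were above the share of all genes on both sides. At 10 kb the share with an IFNγ+PJ34-only peak was 50.0% against 12.1%. These genes lie in gene-dense, peak-rich clusters, where neighbours share peaks, so the genes are not independent of one another.

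The guanylate-binding proteins (GBPs) and immunity-related GTPases disrupt the vacuoles of intracellular parasites and bacteria. Of 17 genes, 16 had a promoter peak in IFNγ+PJ34 and 11 in PJ34. The promoters with a peak in IFNγ+PJ34 and none in PJ34 were those of Gbp4, Gbp8, Gbp10, Iigp1 and Tgtp1. The 11 promoter pairs shifted by 3.51 to 21.8 points, all upward, with a median of 12.4. Within 50 kb of these genes, 48 of 82 IFNγ+PJ34 peaks (58.5%, 47.1 to 69.3) were IFNγ+PJ34-only, against 22.4% of the peaks near all genes, and 2 of 44 PJ34 peaks (4.55%, 0.555 to 15.5) were PJ34-only, against 28.9%.

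The highest promoter peak of Iigp1, an immunity-related GTPase, stood at percentile 11.5 in Control and 79.0 in IFNγ, was missing in PJ34 and stood at 79.2 in IFNγ+PJ34. That of Gbp8 stood at 32.5 in Control, 48.7 in IFNγ and 70.5 in IFNγ+PJ34, and was missing in PJ34. Gbp5, which promotes inflammasome activation, stood at 80.2, 96.5, 80.9 and 98.4 in Control, IFNγ, PJ34 and IFNγ+PJ34. At Gbp2, Gbp3 and Gbp7 the promoter stood between 83.2 and 89.3 in PJ34 and between 98.6 and 99.2 in IFNγ+PJ34. Tgtp2 went from 71.6 in PJ34 to 93.4 in IFNγ+PJ34, against 75.9 in Control and 92.0 in IFNγ. Irgm1, a regulator of the family, was near the top of every list, at 97.9, 100.0, 96.5 and 100.0. The named promoters were thus higher in both lists from IFNγ-treated cells than in either list from cells without it. Gbp10, whose promoter was a peak in IFNγ+PJ34 alone (31.8), and Gbp2b, with no promoter peak in any list, were exceptions. Without PJ34 the corresponding pairs shifted by a median of 13.9 points, and 27 of 62 IFNγ peaks (43.5%) near the genes were absent from Control. The difference between the comparisons with and without PJ34 was not tested.

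The antiviral interferon-stimulated genes, which block viral replication or sense viral nucleic acid, were higher without exception in direction. All 24 promoter pairs had a positive shift, with a median of 11 points, and 4 reached 20 (Ifit2, Rsad2, Ifit3 and Ifi203). Taking the highest promoter peak of each list, 3 reached 20, since the Rsad2 difference became smaller. Ifit2, an inhibitor of viral translation, stood at 66.3 in Control, 79.8 in IFNγ, 52.9 in PJ34 and 96.1 with both agents. Ifit3, which binds and stabilises Ifit1, stood at 81.5, 89.96, 65.3 and 91.0 in the same order. Ifi203, of the p200 family, stood at 89.4, 98.2, 78.1 and 98.7, and Rsad2, the radical-SAM enzyme viperin, at 81.2, 86.8, 71.6 and 89.3. In these 4 genes the PJ34 list had the lowest value and the IFNγ+PJ34 list the highest. The order is partly set by choosing genes whose shift between these lists reached 20 points. Near the group, 49 of 171 IFNγ+PJ34 peaks (28.7%) were IFNγ+PJ34-only and 20 of 150 PJ34 peaks (13.3%) PJ34-only, against 22.4% and 28.9% near all genes. 9 IFNγ+PJ34-only peaks lay within 50 kb of Rsad2 and 6 within 50 kb of Samhd1, a nuclease that depletes nucleotides.

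Of the chemokine genes, Cxcl10, whose product draws CXCR3-bearing T cells, had a promoter at 50.7 in Control, 90.9 in IFNγ, 70.3 in PJ34 and 95.8 with both agents. The promoter of Cxcl9, another CXCR3 ligand, had a peak in the IFNγ list (68.5) and the IFNγ+PJ34 list (45.6) only. Ccl2, Ccl7 and Ccl12, which recruit monocytes, stood at 48.6, 56.3 and 85.3 in PJ34 and at 62.2, 79.9 and 93.7 in IFNγ+PJ34. All 7 promoter pairs of this group had a positive shift, with a median of 20.5 points and 4 past 20, or 13.6 points and 2 past 20 when the highest promoter peak of each list was compared. Ccl5, a chemokine for T cells and monocytes, stood apart: its promoter was a peak in Control (47.2), IFNγ (52.2) and PJ34 (56.3) and not in IFNγ+PJ34.

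The signalling components stood high in both lists and moved little. The 12 genes of the receptor, JAK, STAT and feedback inhibitor group had a median promoter shift of 1.2 points, or 2.72 by the highest promoter peak of each list, with 0 of 12 past 20 points. Stat2, a part of the factor that binds ISREs, stood at 90.3 in PJ34 and 97.5 in IFNγ+PJ34, against 95.9 in Control and 94.3 in IFNγ. Jak2 stood at 98.9 and 94.2, and Ifngr1, a receptor chain, at 97.7 and 95.8. At Socs1 the promoter peak was near the top in both (94.2 and 100.0) and widened from 3032 to 6026 bp. Within 50 kb of Socs1 lay 7 IFNγ+PJ34-only peaks. Near the group, 31 of 121 IFNγ+PJ34 peaks (25.6%) were IFNγ+PJ34-only, against 22.4% near all genes. Of 132 PJ34 peaks 52 (39.4%) were PJ34-only, against 28.9%, so the group was richer in PJ34-only peaks. The 8 interferon regulatory factors had a median shift of 1.04 points. Irf7, the factor for type I interferon genes, stood at 89.9 in PJ34 and 99.2 in IFNγ+PJ34, Irf8 at 86.6 and 94.1, and Irf1 at 91.3 and 97.0.

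Antigen presentation divided. Ciita, the activator of MHC class II genes, stood at 61.3 in Control, 84.4 in IFNγ, 66.1 in PJ34 and 76.1 with both agents. The class II genes themselves were lower with IFNγ+PJ34: H2-Ab1 stood at 82.5 in PJ34 and 55.4 in IFNγ+PJ34, H2-Eb1 at 71.6 and 27, and H2-Aa at 64.6 and 43.6. Cd74, the invariant chain, stood at 87.0 and 72.1. In Control and IFNγ these 3 H2 genes were close, H2-Ab1 at 70.6 and 71.0, H2-Eb1 at 55.9 and 53.7, and H2-Aa at 70.2 and 69.8. The class I pathway was close to the top throughout, with Nlrc5 at 87.0 in PJ34 and 96.1 in IFNγ+PJ34, the shared promoter of the peptide transporter Tap1 and the immunoproteasome subunit Psmb9 at 93.7 and 99.7, and Psmb8 at 90.3 and 98.4. Of the 19 promoter pairs, 11 had a positive shift and 3 were lower by 20 points. Near the group, 18 of 131 IFNγ+PJ34 peaks (13.7%) were IFNγ+PJ34-only and 36 of 153 PJ34 peaks (23.5%) PJ34-only. Near all genes the shares were 22.4% and 28.9%.

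**Figure D3:**
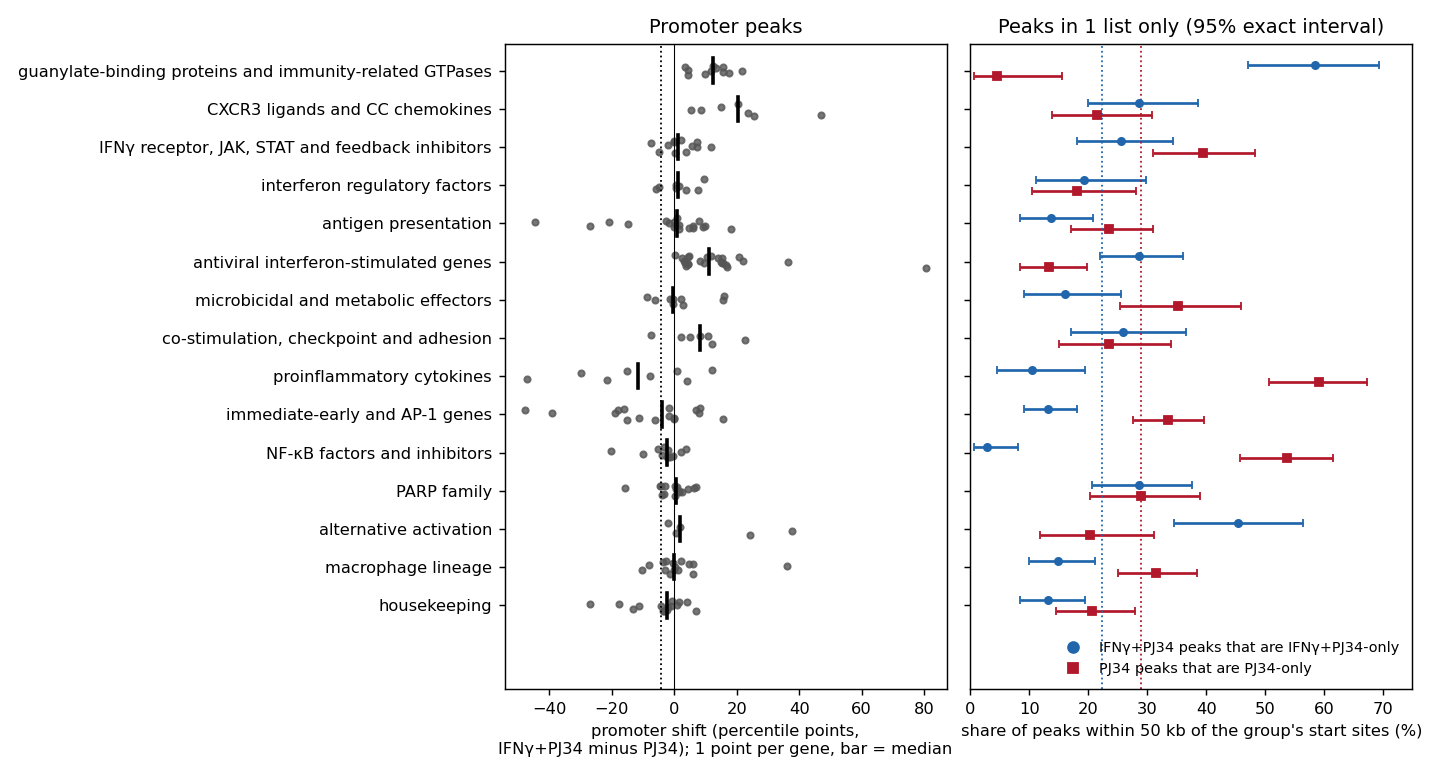
Left, shift of the promoter pair (percentile points, IFNγ+PJ34 minus PJ34; 1 point per gene, bar at the group median, dotted line at the median of all genes, -4.25). Right, share of the peaks within 50 kb of each group's start sites that were IFNγ+PJ34-only (blue circles) or PJ34-only (red squares), with exact 95% intervals and dotted lines at the shares near all genes (22.4% and 28.9%). GBPs and GTPases sit far to the IFNγ+PJ34-only side (58.5% and 4.55%), and proinflammatory cytokines and NF-κB factors to the PJ34-only side (59.2% and 53.7%).

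Other regions were lower with IFNγ+PJ34. Near 10 proinflammatory cytokine genes 84 of 142 PJ34 peaks (59.2%, 50.6 to 67.3) were PJ34-only, and 8 of 77 IFNγ+PJ34 peaks (10.4%) were IFNγ+PJ34-only. The promoter of Il1b, the gene of interleukin 1 beta, stood at 82.4 in Control, 82.8 in PJ34 and 15.6 in IFNγ+PJ34. Its IFNγ value of 48.7 belongs to a peak downstream of the start site, and the IFNγ peak over the upstream region, which ends 1.06 kb from the start, stood at 74.4. Another IFNγ+PJ34 peak, outside the promoter window but within the span of the PJ34 peak, stood at 35.5. 20 PJ34-only peaks lay within 50 kb of Il1b. Il10 stood at 75.9, 69.8, 84.4 and 62.9, and also had 20 PJ34-only peaks within 50 kb. Tnf stood at 97.1, 97.4, 98.0 and 82.9, and Il27, a regulator of T cell differentiation, at 71.2, 70.6, 77.1 and 47.3. The IFNγ+PJ34 value was the lowest of the 4 at each of these 4 genes. This is partly set by the choice, since they are described here as lower in IFNγ+PJ34 than in PJ34. Other cytokines differed: Il18 stood at 82.6 in PJ34 and 94.6 in IFNγ+PJ34, and Il15 at 98.8 and 99.5. Of 8 promoter pairs 3 had a positive shift, and the group median was -11.5 points, against -4.25 over all genes.

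Near the genes of the NF-κB factors and their inhibitors, the promoters and the wider region differed. All 12 promoters had peaks in both lists, and the median shift was -2.24 points, above that of all genes. Of all peaks within 50 kb, promoters included, 88 of 164 PJ34 peaks (53.7%, 45.7 to 61.5) were PJ34-only, 3 of 105 IFNγ+PJ34 peaks (2.86%, 0.593 to 8.12) were IFNγ+PJ34-only, and of 69 pairs 23 were lower by 20 points and 2 higher, beside 17.1% and 11.6% of the pairs near all genes. 19 PJ34-only peaks lay near Nfkbiz, 14 near Nfkb1, 12 near Tnfaip3 and 11 near Nfkbia, the latter pair encoding inhibitors of the pathway. Without PJ34, 41 of 130 Control peaks near these genes (31.5%) were absent from IFNγ and 12 of 125 IFNγ peaks (9.60%) absent from Control. Among immediate-early genes, Egr1 stood at 79.4 in Control, 87.9 in IFNγ, 86.6 in PJ34 and 47.3 with both agents, Myc at 74.3, 77.9, 83.5 and 41.0, and Fos at 93.5, 96.0, 94.4 and 75.3. The promoter of Nr4a1, an orphan nuclear receptor, had a peak in every list (67.7, 56.3 and 75.4) but that of IFNγ+PJ34. Others of this group went the other way: Klf2 stood at 74.5 in PJ34 and 90.2 in IFNγ+PJ34, Jun at 91.7 and 98.5, and Atf3 at 90.9 and 98.8. In this group 5 of 16 promoter pairs had a positive shift, with a median of -3.93 points. Over all genes 2844 of 10638 were positive and the median was -4.25 points, so the group as a whole was near all genes.

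The peaks with the largest values were chosen by rank and are described without a test. The 8 highest IFNγ+PJ34-only peaks stood between percentiles 92.9 and 95.2. The first, at chr17:79094767-79097215 and 43.4 kb downstream of the Qpct start site, was in no other list. Of the other 7, those nearest Hook1 (in an intron of Fggy), Afdn and Dip2c were also in Control and IFNγ, those nearest Bmp2 and Mrc1 in Control only, and those nearest Pop4 and Mrpl1 in IFNγ only. Mrc1 encodes the macrophage mannose receptor, and its peak at chr2:14260957-14263590 lies in an intron of the gene. The 8 highest PJ34-only peaks stood between 83.8 and 89.0 and were all in both Control and IFNγ. They included a pair of peaks in an intron of Zdhhc18, nearest to Sfn, a peak at chr5:90878653-90882917 that lies 9.87 kb upstream of the neutrophil chemokine gene Cxcl1 (86.1 in PJ34, 84.5 in Control and 85.2 in IFNγ), and one nearest the bacterial lipopeptide receptor gene Tlr1.

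Among pairs, the largest gain in percentile was beside Gpr157, at 5.78 in PJ34 and 96.4 in IFNγ+PJ34 (55.9 in Control and 77.5 in IFNγ), where a 212-bp peak faced one of 2440 bp. It was followed by pairs nearest Sypl, Ahr, Smc6 (in an intron of Vsnl1), Fmnl2, Tagap, Usp7, Ly86, Dop1a and Ints7, with shifts of 83.4 to 86.8 points. Ahr encodes the aryl hydrocarbon receptor and Ly86 a partner of a Toll-like receptor relative on the cell surface. The largest loss was in an intron of Tnip1, a partner of the NF-κB inhibitor Tnfaip3, from 92.9 to 3.47. There an 8513-bp peak in PJ34 faced a 776-bp peak. The next were those of Ccdc57, the promoter of the adenosine receptor gene Adora2a (91.7 to 8.96), Pde4b, Tm9sf3 (in an intron of Pik3ap1), a region 62.2 kb from Tnfaip3 (90.8 to 8.96), Prss56, Tlx1, Alpk2 and Cmtr1. In each of these 10 lower pairs the Control and IFNγ peaks stood between 61.3 and 93.4. A wide peak in 1 list can be several fragments in the other, and only the largest overlap is paired, so the largest shifts include such fragments. When the highest overlapping peak of each list was compared instead, 12.8% of pairs were higher and 17.2% lower.

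The widest changes in width followed the same lines. The peaks that widened most in IFNγ+PJ34 were nearest Fggy (from 204 to 5209 bp), Usp15, Tmem252, Zfp281, Cyth1 and Nrip1, from between 185 and 251 bp in PJ34 to between 4023 and 5416 bp. Those that narrowed most were nearest Clic4 (from 4947 to 199 bp), Lpp, the promoter of Il4i1 (from 3891 to 192 bp), an amino acid oxidase of antigen-presenting cells, Tnfrsf8, Slc39a14 and A730009L09Rik. Over all pairs 2836 were at least doubled in width and 4001 at most 50% as wide.

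**Figure D4:**
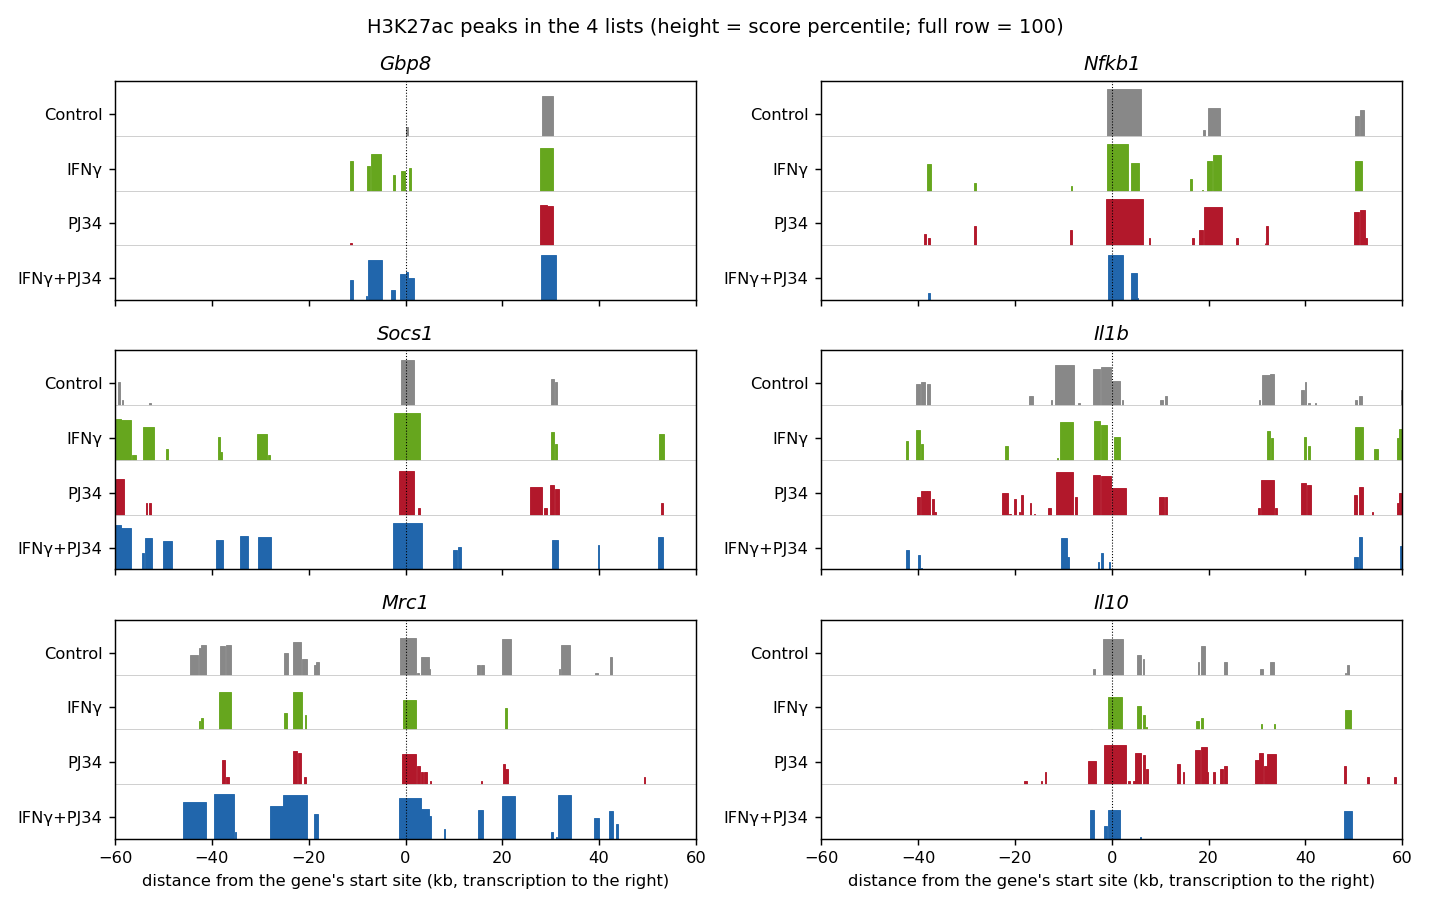
H3K27ac peaks of the 4 lists within 60 kb of 6 start sites, as bars placed by distance from the start site (kb, transcription to the right), whose width is the peak and whose height is its score percentile (full row = 100). The first panel is centred on the outermost annotated Gbp8 start, which adjoins that of Gbp4, and holds the Gbp4 region at percentile 85.7. The panels of Gbp8, Socs1 and Mrc1 show peaks in IFNγ+PJ34 that PJ34 lacks, and those of Nfkb1, Il1b and Il10 peaks in PJ34 that IFNγ+PJ34 lacks.

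Where the regions found in 1 list stood without PJ34 differed between the directions. Of the IFNγ+PJ34-only peaks 34.3% overlapped a Control peak, 24.0% an IFNγ peak and 52.1% neither, and 1494 (13.5%) were in IFNγ and not in Control. Of the 298 in the top 25% of the list, 73.5% were in IFNγ and 55.7% in Control. Of the PJ34-only peaks 51.4% were in Control, 41.9% in IFNγ and 35.4% in neither. Of the 128 in the top 25%, 124 (96.9%, 92.2 to 99.1) were in both. The strong PJ34-only peaks were thus regions that only the IFNγ+PJ34 list lacked. The paired peaks that were higher stood at a median percentile of 58.0 in Control and 53.7 in IFNγ, between the medians of 32.8 in PJ34 and 69.7 in IFNγ+PJ34. Those that were lower stood at 62.7 and 57.4, near the PJ34 median of 63.8 and above the IFNγ+PJ34 median of 27. A position between or near these values is partly set by choosing pairs on their shift.

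The regions found in IFNγ+PJ34 differed in sequence from those found in PJ34. Motifs were searched on both strands around the summits. The mark is carried by nucleosomes, which flank a factor-bound site rather than cover it. In the IFNγ+PJ34-only peaks GAS matches numbered 0.361 per kb within 100 bp of the summit and were most frequent 200 to 300 bp from it, while in the PJ34-only peaks they were even across the window. At 200 to 300 bp GAS matches numbered 0.746 per kb in IFNγ+PJ34-only peaks and 0.319 per kb in PJ34-only peaks, and 0.666 and 0.269 per kb in the higher and the lower pairs. A control motif with the GAS ends exchanged (GAANNNTTC) numbered 0.292, 0.265, 0.284 and 0.215 per kb in the same classes. The range of 150 to 350 bp was chosen after this profile was seen, and within 100 bp of the summit, the window chosen earlier, the ratio of shares with a GAS match was 1.16 (1.06 to 1.28).

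Within 150 to 350 bp of the summit 2592 IFNγ+PJ34-only peaks (23.5%) and 1670 PJ34-only peaks (12.0%) held a GAS match, a ratio of 1.96 (1.85 to 2.07), while the control motif gave a ratio of 1.10 (1.03 to 1.19). The share was 13.1% in pairs that moved by less than 20 points, many of which are at promoters. Away from promoters it was 23.8% in IFNγ+PJ34-only peaks, 16.1% in pairs within 20 points and 12.3% in PJ34-only peaks. For the strict palindrome, which every GAS search also counts, the shares were 4.45% and 1.1%, a ratio of 3.92 (3.28 to 4.68). The higher and lower pairs away from promoters gave 22.3% and 10.8% for GAS, a ratio of 2.07 (1.84 to 2.32). ISRE letters (TTTCNNTTTC) were in 12.0% of IFNγ+PJ34-only and 6.49% of PJ34-only peaks, and the motif of PU.1 (GAGGAAGT), the factor that sets macrophage enhancers, in 9.26% and 6.45%. In distal pairs within 20 points ISRE letters were in 10.7%, against 12.1% of distal IFNγ+PJ34-only peaks, and the PU.1 motif in 11.7%, against 9.40%, so that beside distal regions that had not moved the IFNγ+PJ34-only peaks held ISRE letters slightly more often and PU.1 letters less often. AP-1 matches away from promoters at 200 to 300 bp numbered 1.03 per kb in lower pairs, 0.803 in PJ34-only peaks, 0.766 in pairs within 20 points, 0.564 in higher pairs and 0.52 in IFNγ+PJ34-only peaks. AP-1 and NF-κB shares went the other way from GAS, with AP-1 in 17.2% and 23.9% (ratio 0.72, 0.684 to 0.756) and NF-κB in 1.78% and 2.89% (ratio 0.62, 0.522 to 0.731). Away from promoters, pairs within 20 points held AP-1 in 23.9% and NF-κB in 2.89%. Distal PJ34-only peaks were near these shares (24.9% and 2.89%), and distal IFNγ+PJ34-only peaks were below them (17.5% and 1.74%). The median G+C content of the IFNγ+PJ34-only summit windows was 44.8%. A match is a run of letters and not a bound site.

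GAS matches were most frequent where IFNγ alone had also given a peak. Of the IFNγ+PJ34-only peaks found in IFNγ and not in Control 36.2% held one, against 25.3% of those in no other list and 15.7% of those in Control. The ratio of the first to the last was 2.30 (2.09 to 2.55), and 4.92 (3.68 to 6.59) for the strict palindrome. The control motif did not follow this order, at 10.2%, 11.5% and 10.8%.

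**Figure D5:**
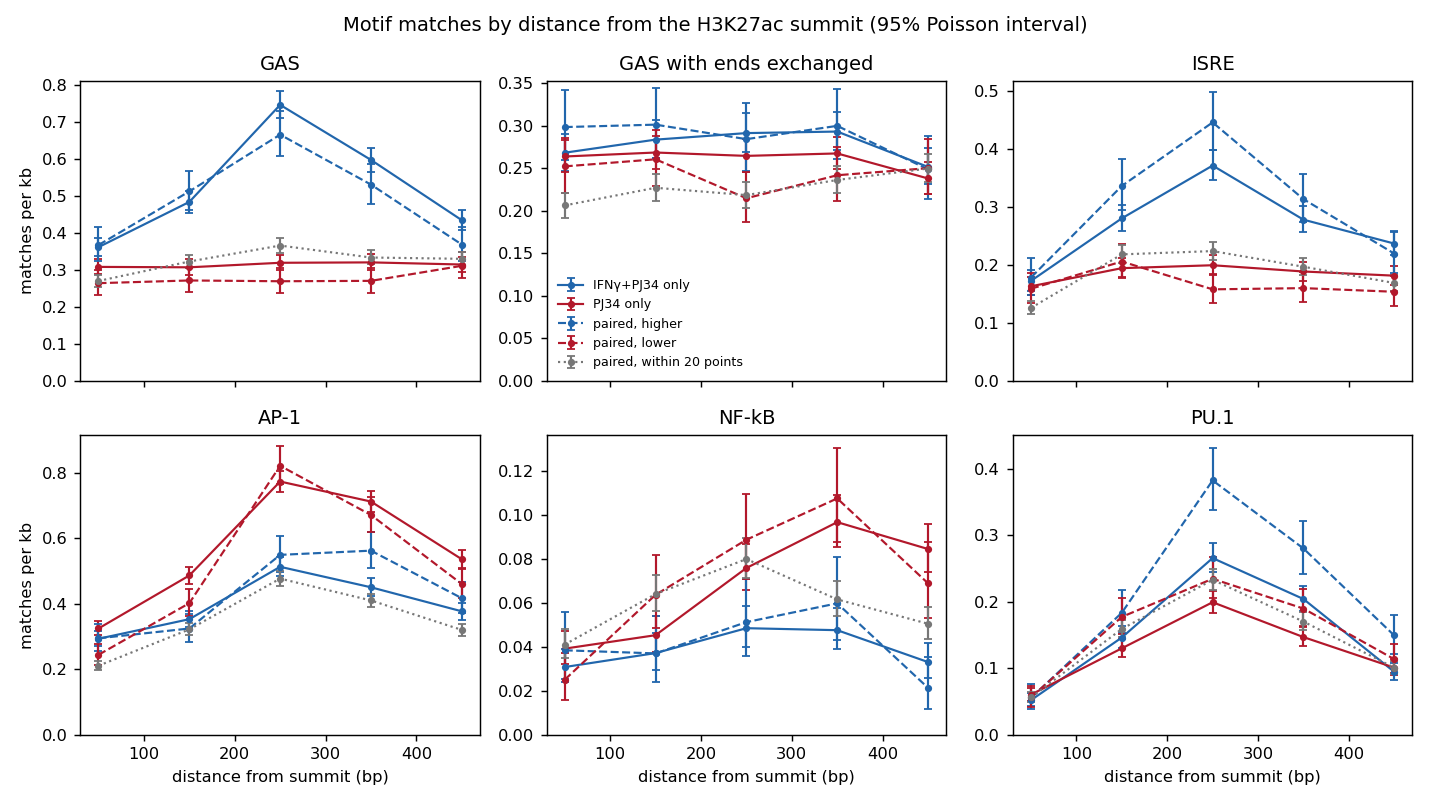
Motif matches per kb (vertical axes, each panel with its own scale) by distance from the H3K27ac summit (bp, in bins of 100 bp) for IFNγ+PJ34-only peaks, PJ34-only peaks and pairs that were higher, lower or within 20 points, with 95% Poisson intervals. GAS peaks at 200 to 300 bp in IFNγ+PJ34-only peaks (0.746 per kb) and is flat in PJ34-only peaks (0.319 per kb), AP-1 is highest in PJ34-only peaks and lower pairs (0.773 and 0.821 per kb), and the exchanged-ends control differs least between classes.

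Genes outside the interferon program were mixed. Among genes of alternative activation, the state induced by interleukin 4, 39 of 86 nearby IFNγ+PJ34 peaks (45.3%, 34.6 to 56.5) were IFNγ+PJ34-only, against 22.4% near all genes, and 15 of 74 PJ34 peaks (20.3%) were PJ34-only, against 28.9%. Of 45 pairs 19 (42.2%) were higher by 20 points and 4 (8.89%) lower, beside 11.6% and 17.1% of the pairs near all genes. Mrc1 had 11 IFNγ+PJ34-only peaks within 50 kb, all 7 of its nearby pairs were higher, and its promoter stood at 78.9 in Control, 62.9 in IFNγ, 63.8 in PJ34 and 88.2 with both agents. Arg1 encodes an enzyme that breaks down arginine, and a region that reaches its promoter, with the summit 2.56 kb from the start site, stood at 42.5 in PJ34 and 80.3 in IFNγ+PJ34, against 53.6 in Control and 48.7 in IFNγ. 10 IFNγ+PJ34-only peaks lay near the interleukin 4 receptor gene Il4ra and 5 near the lectin gene Mgl2. Ccl17 and Ccl22, chemokine genes that are neighbours, went the other way, with 4 and 12 PJ34-only peaks and 0 IFNγ+PJ34-only peaks. Among the 15 macrophage lineage genes 26 of 174 nearby IFNγ+PJ34 peaks (14.9%) were IFNγ+PJ34-only, against 22.4% near all genes. Of 197 PJ34 peaks 62 (31.5%) were PJ34-only, close to the 28.9% near all genes. Of 114 pairs 13 were higher by 20 points and 14 lower. 10 PJ34-only peaks lay near Spi1, which encodes PU.1, 8 near Itgam, 7 near Cebpb and 6 near Csf1r, against 0, 2, 0 and 3 that were IFNγ+PJ34-only. Mertk, a receptor for dying cells, differed from these, with 7 IFNγ+PJ34-only and 0 PJ34-only peaks. Its promoter stood at 80.8 in Control, 44.0 in IFNγ, 54.8 in PJ34 and 90.8 with both agents, lower with IFNγ when no inhibitor was given and higher when it was. For Mrc1 and Mertk the IFNγ+PJ34 value lay nearer that of Control than that of PJ34 did.

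The PARP genes, the family the inhibitor targets, were listed with Parg, which is not a PARP gene and whose product cleaves ADP-ribose chains. These genes stood at similar percentiles in both lists. All 16 genes of this group, Parg included, had promoter peaks in both lists. The median shift was 0.46 points, against -4.25 over all genes, and the highest promoter pair of each gene passed 20 points at 0 of 16. Other pairs at promoters of the region did pass: one 0.287 kb from the Parp16 start site went from 82.9 in PJ34 to 38.4, and one 0.638 kb from that of Parp3, at the promoter of its neighbour Rrp9, from 72.8 to 35.5. Parp1 stood at 79.8 in Control, 69.8 in IFNγ, 68.0 in PJ34 and 72.5 with both agents. Parp14 and Parp9, which are interferon-inducible, stood at 99.3 and 99.3 in PJ34 and at 100.0 and 100.0 in IFNγ+PJ34. The 15 housekeeping genes had a median promoter shift of -2.21 points, with 1 lower by 20 points.

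The responses with and without PJ34 could be followed at 23465 pairs present in all 4 lists. Of the 2610 that were higher with IFNγ in the presence of PJ34, 465 (17.8%) were also higher by 20 points with IFNγ in its absence and 720 (27.6%) lower. Of the 4193 that were lower with PJ34, 891 (21.2%) were also lower without it and 296 (7.06%) higher. Over all 23465 pairs 5.89% were higher and 17.0% lower without PJ34. Pairs that were higher with PJ34 therefore had a larger share of both higher and lower pairs without it than the whole set did. The sets differ in make-up, since 8.19% of all 3516 higher pairs were at promoters, where pairs moved less. Over all pairs of IFNγ with Control, 1.68% of promoter pairs were higher and 7.69% lower. Intronic pairs gave 12.6% and 22.3%, and intergenic pairs 11.6% and 21.9%. The comparisons share no list, and the differences between them were not tested against replicate error.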

How the data were processed

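H3K27ac ChIP-seq was done in BMDMs under 4 conditions, with 2 ChIP and 2 input samples each. Per the study's methods, the authors aligned reads to mm10 with Bowtie, called relaxed MACS peaks per replicate at a p-value of 0.01 against input, and kept peaks that overlapped in both replicates. Each deposited list gives a score (a linear rescaling by the authors of −log10 p to whole numbers), a fold enrichment ratio, with the p-value and the q-value, both as −log10, from the authors' peak calling. No read counts are in the files, so depth is unknown.

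Peaks were compared by position with Python 3.11.15, pandas 2.3.3, scipy 1.17.1 and pysam 0.24.0. Absence meant no overlap of 1 bp. Pairs were reciprocal largest overlaps, and percentiles were average ranks of the score within a list. Promoters lay within 1 kb of start sites of 21851 protein-coding genes (GENCODE M21), and 247 of 250 genes in 21 lists matched (Gbp11, Cxcl11 and Mx2 did not). All peak ends lay inside the mm10 chromosomes. Shares have exact Clopper-Pearson 95% intervals, ratios of shares Katz log intervals and match densities exact Poisson intervals. The functions were tested on simulated data. No test across replicates was possible.

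The members and gene lists were chosen with earlier results of these data known. Genes were named when in a list, or when nearest to the 8 highest peaks found in 1 list only in each direction, the 10 pairs with the largest gain and the 10 with the largest loss in percentile, and the 6 pairs that widened and the 6 that narrowed most among pairs with a peak of at least 2 kb. Genes whose introns or promoters hold such a region are given as its location. The other settings tried were overlap, distance, rank column, pairing, list length, promoter window, motif and window. Comparing the highest promoter peak or the highest overlapping peak of each list, restricting the queried list alone, and motif searches 150 to 350 bp from the summit were chosen after seeing the data. The values of some genes in the lists are not reported here. No p-value was computed, since each condition has 1 list.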

Additional observations from a re-analysis of the deposited data

Results flagged for a closer look

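Pairs of peaks present in all 4 lists went in opposite directions with and without the inhibitor. 720 pairs were higher by at least 20 percentile points with IFNγ in the presence of PJ34 and lower by as much with IFNγ in its absence, 27.6% of the 2610 that were higher with PJ34, against 17.0% lower without PJ34 over all pairs. Another 296 went the opposite way, 7.06% of the 4193 that were lower with PJ34, against 5.89% higher without PJ34 over all pairs. The whole set holds many promoter pairs, which moved less. Over all pairs of IFNγ with Control, promoter pairs were lower at 7.69%, intronic pairs at 22.3% and intergenic pairs at 21.9%. They were higher at 1.68%, 12.6% and 11.6%. Of all higher pairs with PJ34 8.19% were at promoters, and the part of this make-up in the excess over the whole set was not tested. The differences were not tested, since each condition has 1 list.

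The Control and IFNγ lists enter none of the comparisons of IFNγ+PJ34 with PJ34, and they held most of the strongest unmatched regions. Of the PJ34-only peaks in the top 25% of their list, 96.9% were in both Control and IFNγ. Of the IFNγ+PJ34-only peaks in the top 25%, 55.7% were in Control, where no IFNγ had been given. The part of library depth in these shares was not tested: at a fold enrichment of 5 to 6 the median −log10 p was 11.8 in IFNγ+PJ34 and between 14.4 and 17.1 in the other lists.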

How the results depend on the processing

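Of 43 alternatives over 9 results, 13 left the value within its counting interval and 30 moved it beyond that interval, which is narrow because it covers counting error only. Single shares cannot change sign, but under 2 settings the order of a pair of shares turned around. No paired analysis was possible because the authors merged both replicates into every list, which also prevents leaving one out.

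The share of IFNγ+PJ34 peaks absent from PJ34 (25.7%) was 31.4% when at least 50% of the peak had to overlap, 19.2% when a peak within 1 kb counted, 22.7% in the higher-scoring 50% of each list, 26.2% for lists of equal size and 11.02% when only the queried list was cut to its upper 50%. The share of PJ34 peaks absent from IFNγ+PJ34 (31.6%) was 39.1%, 21.5%, 25.6%, 30.6% and 9.32% under the same settings, and 32.6% at q under 0.01. With the queried list alone restricted, the order of the lists thus turned around, to 11.02% and 9.32%.

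Pairs higher by 20 points (13.1%) were 13.8% when ranked by fold enrichment, 15.9% with percentiles among pairs and 12.6% in regions with exactly 1 peak of each list. Pairs lower by 20 points (17.9%) were 19.3% by fold enrichment, 15.01% with percentiles among pairs, 16.8% for lists of equal size and 17.2% for the highest-ranked overlapping peaks. With percentiles among pairs the higher pairs thus outnumbered the lower. The median log2 width ratio (-0.15) was -0.12 in regions with exactly 1 peak of each list and -0.14 in the higher-scoring 50% of both.

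The promoter share of IFNγ+PJ34-only minus shared peaks (-32.9 points) was -46.0 in the higher-scoring 50% and -34.8 with 50% overlap. IFNγ-response genes with an IFNγ+PJ34-only peak (81.1%) were 50.0% at 10 kb, 88.9% at 100 kb and 40% with higher-scoring peaks, where all genes gave 12.1%, 50.8% and 11.3%. The promoter shift of these genes minus that of all genes (10.1 points) was 14.5 with percentiles among pairs. The GAS ratio within 100 bp of the summit (1.16) was 1.34 within 200 bp, 1.44 per kb of whole peak, 1.63 for the strict palindrome and 1.96 at 150 to 350 bp. The cause of these differences was not tested beyond what each setting changes by construction. Depth limits what can be said of weak peaks: a peak missing from a list may be below its threshold rather than without H3K27ac.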

Other observations

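Genes of co-stimulation, checkpoint and adhesion stood slightly higher with IFNγ+PJ34 than with PJ34, with a median promoter shift of 8.31 points and 6 of 7 pairs positive. Over all genes the median was -4.25 points, with 2844 of 10638 positive. By the highest promoter peak of each list the group median was 6.63 points, with 5 of 6 positive. Near the group 25.9% of IFNγ+PJ34 peaks were IFNγ+PJ34-only and 23.5% of PJ34 peaks PJ34-only, against 22.4% and 28.9% near all genes. Cd274, the checkpoint ligand PD-L1, stood at percentile 89.3 in Control, 100.0 in IFNγ, 91.5 in PJ34 and 99.8 with both agents, with 6 IFNγ+PJ34-only and 6 PJ34-only peaks within 50 kb. Cd86, a co-stimulatory ligand of T cells, stood at 66.3, 73.9, 73.2 and 85.1 in the same order, and Cd80, its relative, at 79.8, 68.5, 83.0 and 75.6. Fcgr1, the high-affinity receptor for immunoglobulin G, stood at 98.2, 97.8, 88.6 and 99.4.

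The microbicidal and metabolic effectors were mixed, with 4 of 9 promoter pairs positive and a median shift of -0.38 points, against -4.25 over all genes. Nos2, the inducible nitric oxide synthase, stood at 32.5 in Control, 69.3 in IFNγ, 66.1 in PJ34 and 57.4 with both agents. Ncf1, a subunit of the phagocyte oxidase, stood at 92.9, 92.1, 86.0 and 99.1, and Wars, a tRNA synthetase induced by IFNγ, at 70.6, 89.4, 75.8 and 91.6.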
